A study of Mus musculus with 6 samples.

Results

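Tight junction genes and Epcam were examined in undifferentiated mouse embryonic stem cells (mESCs) with and without Alkbh1. The 9 genes were Cldn3, Cldn4, Cldn5, Cldn6, Cldn7, Ocln, Tjp1, F11r and Epcam, found by symbol or gene identifier in a table that names 15357 genes. They were measured by 16 of its 33142 probe sets, groups of short oligonucleotides whose brightness follows the abundance of a transcript. Where a gene has several, the brightest over all arrays stood for it. The study hybridized 3 arrays of WT and 3 arrays of Alkbh1-/- mESCs, all C57BL/6 by their labels, at passage 8 and day 0 of differentiation, with no treatment. The lines were made from littermate embryos of Alkbh1 heterozygotes and were grown with LIF on irradiated mouse fibroblasts. In the labels, all WT arrays carry the name C3 and all Alkbh1-/- arrays the name C10, so genotype and cell line cannot be told apart. The labels do not say whether the arrays of a line came from separate cultures.

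Tight junctions seal the space between epithelial cells close to their apical surface. Claudins and occludin span the membrane, junctional adhesion molecules hold neighbouring cells together, and zonula occludens proteins tie both to the actin cytoskeleton. Epcam is an epithelial adhesion protein that binds claudins, and it is carried on the surface of undifferentiated mESCs, which have an epithelial character.

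Each of the 5 genes with a mean for both genotypes, Cldn6, Cldn7, Ocln, F11r and Cldn4, was lower in Alkbh1-/- than in WT mESCs. The means over WT arrays were between 1.34 and 2.77 times those over Alkbh1-/- arrays. For Cldn3, Cldn5, Tjp1 and Epcam, only a mean over all 6 arrays was available, and no comparison was made. The means of each genotype, not the single arrays, were analysed here, so the values carry no error and no difference below was tested. Counts past a threshold describe these means only.

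The genotype means come from a class comparison table that lists only entries past the nominal significance level of the authors' own test. Its smallest difference was 0.37 on the log2 scale, so it holds no entry with a small difference. A gene without genotype means may have differed less, varied more or been removed by an earlier filter, and these cannot be told apart. Means of both genotypes were given for 14.8% of the 15357 named genes at their brightest probe set. Of all named genes, 4.97% were lower in Alkbh1-/- mESCs by over 1.5-fold, a log2 difference of 0.58, and 4.67% were higher by over 1.5-fold. Of the 9 genes, 4 were lower by over 1.5-fold and 0 were higher. The median log2 difference of the 5 genes with means was -1.11. That of all named genes with means was -0.44, and that of autosomal genes with means was -0.50. Listed differences were selected for size, and the 9 genes were chosen with earlier results of these data known. These counts and medians are therefore descriptions.

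The targeted gene checked the labels. At its brightest probe set, the authors' mean intensity of Alkbh1 was 761 in WT and 25.7 in Alkbh1-/- mESCs, a log2 difference of -4.89. The gene's other probe set was at 119.96 and 34.6. Other differences ran along with the genotype. Of 281 X-linked genes with means, 260 were higher in Alkbh1-/- mESCs, 215 of them by over 1.5-fold. All 5 Y-linked genes with means were lower, with a summed intensity of 1391 in WT and 59.4 in Alkbh1-/- mESCs. A difference in sex between the lines was not tested, and it could not be told apart from genotype in any difference given here. The 9 genes lie on autosomes, where 1174 of 1987 genes with means were lower.

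Claudins form the paracellular barrier, and the set of claudins in a cell sets which ions pass. Cldn6, a claudin of embryonic epithelia and pluripotent cells, had an authors' mean intensity of 493 in WT and 178 in Alkbh1-/- mESCs (probe set 1417845_at, chromosome 17). This was the largest difference among the 9 genes for which one could be taken, -1.47 on the log2 scale or 2.77-fold lower. Cldn7, which binds Epcam at the lateral membrane, was at 815 in WT and 320.02 in Alkbh1-/- mESCs (1448393_at, chromosome 11). Its log2 difference was -1.35, or 2.55-fold lower. Cldn4, a barrier-forming claudin, was at 1781 in WT and 1332 in Alkbh1-/- mESCs (1418283_at, chromosome 5). The difference of Cldn4 was smaller, -0.42 on the log2 scale or 1.34-fold lower, and close to the smallest that the class comparison table lists.

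The other claudins among the 9 genes had no genotype means. Cldn3, another barrier-forming claudin, has 5 probe sets, whose authors' means over all arrays were between 5.49 and 7.33 on the log2 scale. Its brightest probe set, 1451701_x_at, carries the suffix given to probe sets that may bind other transcripts. Cldn5, the main claudin of endothelium, had a mean of 4.33 over all arrays at its single probe set, on a table that runs from 3.22 to 14.67 with a median of 6.31.

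Ocln encodes occludin, a membrane-spanning MARVEL-domain protein of the junction strands. Its authors' mean intensity was 122 in WT and 56.4 in Alkbh1-/- mESCs at the brightest probe set (1448873_at, chromosome 13), a log2 difference of -1.11 or 2.16-fold lower. A dimmer probe set, 1440220_at, was at 62.4 and 32.9, a log2 difference of -0.92. Both probe sets of Ocln were thus lower in Alkbh1-/- mESCs.

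F11r encodes junctional adhesion molecule A, an immunoglobulin-domain protein that recruits the Par polarity complex. It was at 705 in WT and 428 in Alkbh1-/- mESCs (1424595_at, chromosome 1), a log2 difference of -0.72 or 1.65-fold lower. Its dimmer probe set, 1436374_x_at, had a mean of 5.75 over all arrays and no genotype means.

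Tjp1 encodes ZO-1, the scaffold below the membrane proteins, and had an authors' mean of 10.10 over all arrays on the log2 scale at its single probe set. Epcam had a mean of 11.96 at its brightest probe set and 7.57 at the other, 1447899_x_at. The class comparison table gave no means by genotype for either gene, so a change in Tjp1 or Epcam can be neither stated nor excluded from these values.

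**Figure D1:**
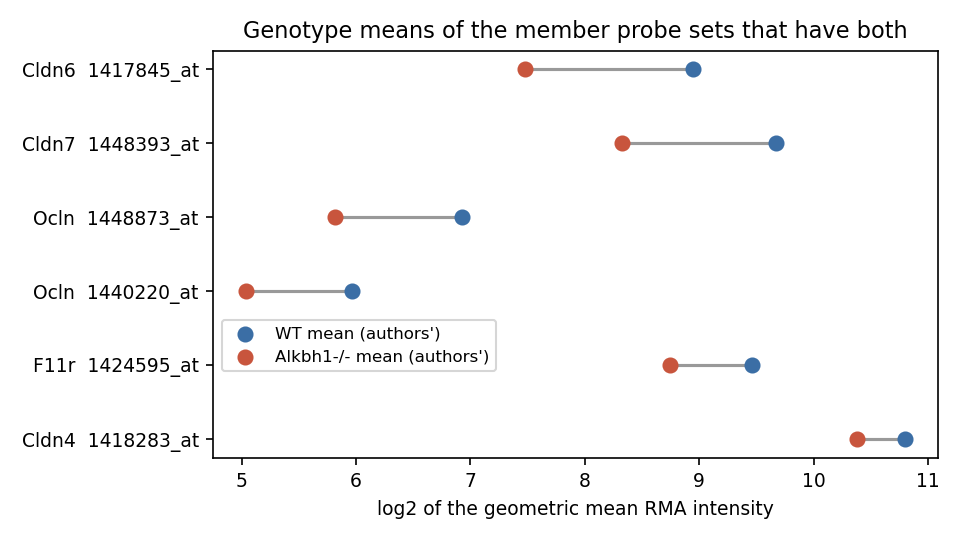
Authors' geometric mean intensities (log2 scale, horizontal axis) in WT (blue) and Alkbh1-/- (red) mESCs for the 6 member probe sets that have both, each row joining the means of a probe set. The Alkbh1-/- mean lies below the WT mean in every row, with a difference of -1.47 for Cldn6 and -0.42 for Cldn4; no error bars are drawn because single arrays were not analysed.

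**Figure D2:**
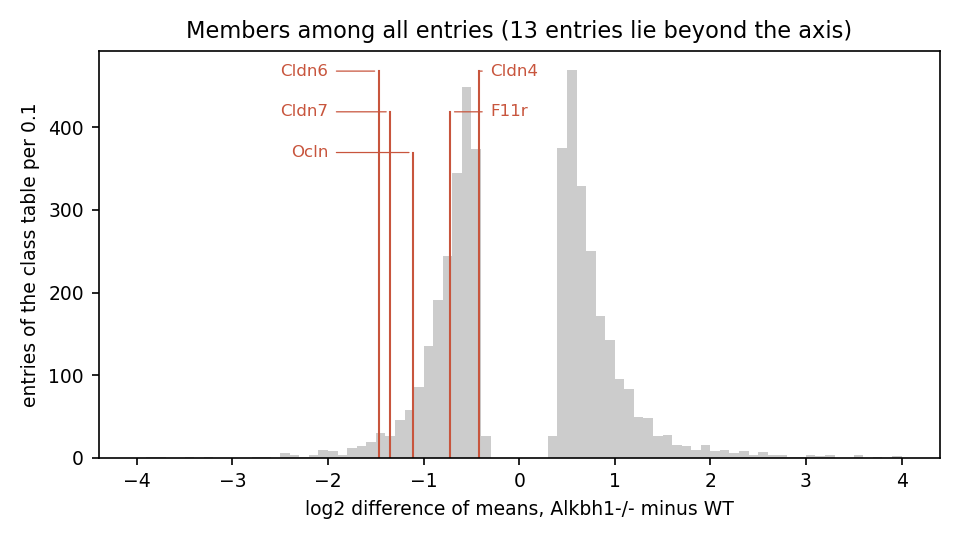
Histogram of the log2 difference (Alkbh1-/- minus WT, horizontal axis) over entries of the class comparison table in steps of 0.1. The vertical axis gives the number of entries, and red lines mark the 5 genes that have means. Of the 4326 entries, those beyond the ends of the axis are not drawn. The gap around 0 shows that the table lists no difference smaller than 0.37 in size, and the 5 genes lie left of it.

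The sequence before the start sites was then read for the 9 genes. The 250 bases before each RefSeq start (assembly GRCm38.p6) were searched for the E-box letters CAGGTG or CACCTG, which Zeb and Snail repressors bind. Of the 9 genes, 6 had at least 1 such match: Cldn4, Cldn6, Cldn7, Ocln, F11r and Epcam. Cldn3, Cldn5 and Tjp1 had none. Epcam, Cldn3, Cldn5 and Tjp1 had no genotype means, so matches cannot be compared between lower and unchanged genes. At least 1 window held these letters for 19.4% of the 27025 genes with a RefSeq start. Windows are shown for Cldn6, Cldn4 and F11r, and 30-base stretches for Cldn7 and Ocln, whose matches lie before the second of 2 starts. Capitals mark the E-box letters.
Cldn6, chr17:23679115-23679364, + strand: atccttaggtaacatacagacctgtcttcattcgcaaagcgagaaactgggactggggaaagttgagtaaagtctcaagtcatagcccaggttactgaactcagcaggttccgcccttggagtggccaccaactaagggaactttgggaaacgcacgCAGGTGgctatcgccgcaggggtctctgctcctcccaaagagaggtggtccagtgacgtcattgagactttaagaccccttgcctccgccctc
Cldn4, chr5:134946935-134947184, - strand: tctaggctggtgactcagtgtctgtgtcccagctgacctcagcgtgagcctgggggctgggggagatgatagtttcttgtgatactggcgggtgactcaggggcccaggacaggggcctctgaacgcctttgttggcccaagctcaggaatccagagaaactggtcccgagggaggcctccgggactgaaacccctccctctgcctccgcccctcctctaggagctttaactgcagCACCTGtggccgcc
F11r, chr1:171437311-171437560, + strand: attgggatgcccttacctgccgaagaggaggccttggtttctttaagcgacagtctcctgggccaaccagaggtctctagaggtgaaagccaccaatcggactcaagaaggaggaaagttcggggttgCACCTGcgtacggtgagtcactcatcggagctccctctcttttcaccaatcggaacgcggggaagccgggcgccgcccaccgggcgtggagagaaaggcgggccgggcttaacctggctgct
Cldn7, chr11:69965312-69965341, + strand: tttcttcctcttCACCTGgacgaggagggg
Cldn7, chr11:69965352-69965381, + strand: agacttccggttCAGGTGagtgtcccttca
Ocln, chr13:100552694-100552723, - strand: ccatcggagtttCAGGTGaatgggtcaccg
Ocln, chr13:100552549-100552578, - strand: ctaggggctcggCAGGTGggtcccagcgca

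The E-box letters began 14 bases before the start of Cldn4, 93 before that of Cldn6 and 122 before that of F11r. They began 97 and 57 bases before the second start of Cldn7, and 213 and 68 before that of Ocln. The windows before the first starts of Cldn7 and Ocln held no such letters, so both genes matched through the second window only. No match overlapped a match of the 4 other motifs searched. The letters AACNNGTT, which Grainyhead-like factors bind, were found for Cldn5 alone among the 9 genes and for 4.11% of all genes. The GC box, GGGCGG or CCGCCC, was found for 9 of 9 genes and for 35.4% of all genes. CCACCC or GGGTGG was found for 5 of 9 and for 30.6%, and TATAAA or TTTATA for 0 of 9 and for 14.3%. A match gives letters only, and binding was not measured here.

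**Figure D3:**
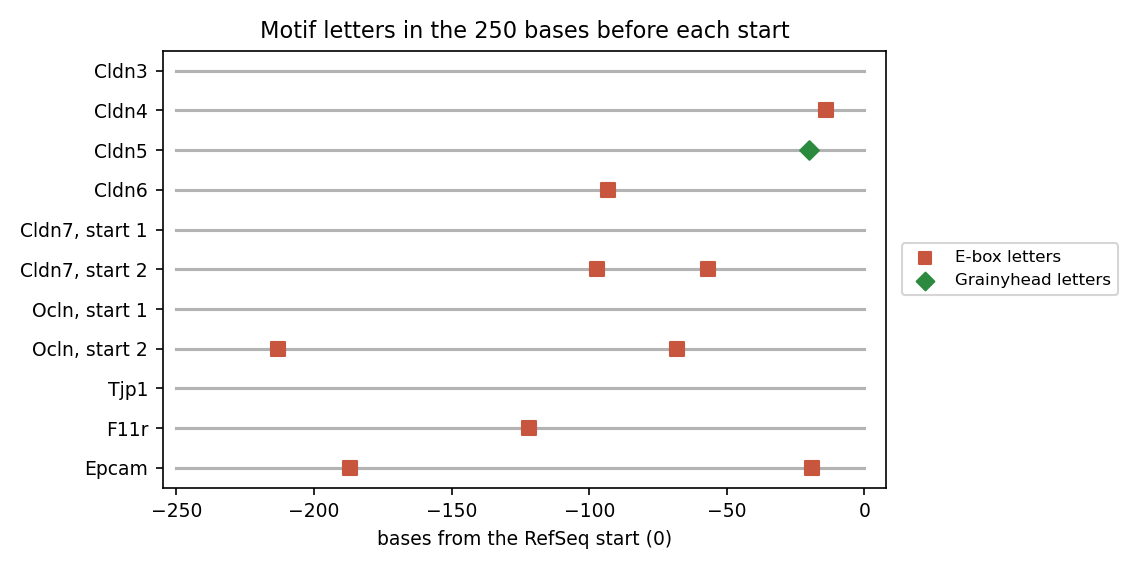
Positions of E-box letters (red squares) and of Grainyhead letters (green diamonds) in the 250 bases before each RefSeq start, 1 row per start, with the distance from the start in bases on the horizontal axis. E-box letters appear before a start of Cldn4, Cldn6, Cldn7, Ocln, F11r and Epcam, and before none of Cldn3, Cldn5 or Tjp1.

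The rest of the junction was examined with a list of 63 further genes of tight junctions, apical polarity and the epithelial programme, of which 56 were in the larger table. Genotype means were given for 22 of the 56 at the brightest probe set. Of these, 18 were lower and 4 were higher in Alkbh1-/- mESCs, 14 and 2 of them by over 1.5-fold. Over all named genes, 14.8% had genotype means, 4.97% were lower by over 1.5-fold and 4.67% were higher. Of the 2273 named genes with means, 1200 were lower and 1073 higher. The median log2 difference of the 22 was -0.68, against -0.44 over the 2273 and -0.50 over the 1987 autosomal genes with means. No gene was tested, and the other 34 had no genotype means. The list was chosen with earlier results of these data known. Its counts and median are descriptions, and nothing is read from how they stand to those of all named genes.

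The relatives of occludin were lower as well. Marveld2 (tricellulin), which seals the corners where several cells meet, had an authors' mean intensity of 75.8 in WT and 27.2 in Alkbh1-/- mESCs, 2.78-fold lower. Marveld3 was at 74.4 and 31.7, or 2.34-fold lower. With Ocln, all 3 tight-junction MARVEL proteins were lower by over 1.5-fold, as were 4.97% of all named genes. With 3 genes, nothing is read from the group. Marveld2 and Marveld3 were dim in Alkbh1-/- mESCs, at 4.77 and 4.99 on the log2 scale. Dimmer probe sets of Marveld3 had no genotype means. Lsr, an angulin that brings tricellulin to cell corners, was at 318 in WT and 197 in Alkbh1-/- mESCs, a log2 difference of -0.69.

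Junctional adhesion molecules went in different directions. Jam2, a relative of F11r, was at 563 in WT and 2245 in Alkbh1-/- mESCs at its brightest probe set (1449408_at, chromosome 16), 3.99-fold higher. All 5 probe sets of Jam2 were higher, between 2.06-fold and 4.67-fold. It was the largest of the 22 differences in either direction, while F11r was 1.65-fold lower. Cxadr, the coxsackie and adenovirus receptor, was at 149 in WT and 219 in Alkbh1-/- mESCs, or 1.47-fold higher. Dimmer probe sets of Cxadr had no genotype means. Esam, an adhesion protein of endothelium, was at 90.7 and 44.7, or 2.03-fold lower. Jam3 had no genotype means.

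Of 13 plaque and scaffold proteins, 6 had genotype means at the brightest probe set, against 14.8% of all named genes. All 6 were lower, where 1200 of the 2273 named genes with means and 1174 of the 1987 autosomal genes with means were lower. Since the list was chosen with earlier results of these data known, nothing is read from the group. Cgn (cingulin), which links ZO proteins to myosin, was at 187 in WT and 99.3 in Alkbh1-/- mESCs, a log2 difference of -0.91. Tjp3 (ZO-3), a relative of Tjp1, was at 220.08 and 124, a log2 difference of -0.83. Cgnl1 (paracingulin) and Afdn (afadin) had log2 differences of -0.67 and -0.61. The angiomotins Amot and Amotl1 were at -1.05 and -0.47, and Amot is X-linked. Dimmer probe sets of Cgn, Cgnl1, Afdn and Amot had no genotype means. Amotl1 was lower at a dimmer probe set (-0.57) and had no genotype means at another. For Magi1, only dimmer probe sets had genotype means, with log2 differences of -0.73 and -0.41.

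Of 10 polarity proteins, 3 had genotype means at the brightest probe set, against 14.8% of all named genes. With 3 genes, all lower where 1200 of 2273 were lower among all named genes with means, nothing is read from the group. The 3 polarity genes were the PDZ scaffolds Mpdz (-0.79) and Patj (-0.82) and the apical membrane protein Crb3 (-0.48), as log2 differences. The 3 probe sets of Crb3 were between -0.54 and -0.48. Patj was dim, with a mean of 4.94 over all arrays. Mpdz and Patj were also lower at a dimmer probe set, by log2 differences of -0.54 and -0.43. Each had another probe set without genotype means. Pard3, of the Par complex, had genotype means at a dimmer probe set only, where it was higher by 0.44 on the log2 scale. Pard6a, Pard6b, Pard6g, Prkci, Prkcz and Pals1 (Mpp5 in RefSeq) had none.

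Regulators of the epithelial state were divided. Esrp1, a splicing regulator of epithelial cells, was at 965 in WT and 295 in Alkbh1-/- mESCs, 3.27-fold lower, and its relative Esrp2 was 1.48-fold lower. Grhl2, a transcription factor that activates epithelial junction genes, was at 477 and 314, a log2 difference of -0.61, and Ovol2 was at -0.47. A dimmer probe set of Grhl2 was lower at -0.78, and its other probe sets had no genotype means. Grhl3 was instead at 92.1 in WT and 171 in Alkbh1-/- mESCs, a log2 difference of 0.89. Zeb1, a repressor of epithelial genes, was at 226 in WT and 315 in Alkbh1-/- mESCs, or 1.39-fold higher. Dimmer probe sets of Zeb1 had no genotype means. Zeb2, Snai1 and Snai2 had no genotype means. Rab25, a GTPase of apical recycling, was lower at -0.88 on the log2 scale, and Spint1, Spint2 and St14 had no genotype means.

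Claudins outside the 9 genes gave no comparison. Of 14 such claudins, 9 were in the larger table and 0 had genotype means. The mean over all arrays was below 5 on the log2 scale for 6 of the 9, and Cldn12 had the highest, at 8.80.

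**Figure D4:**
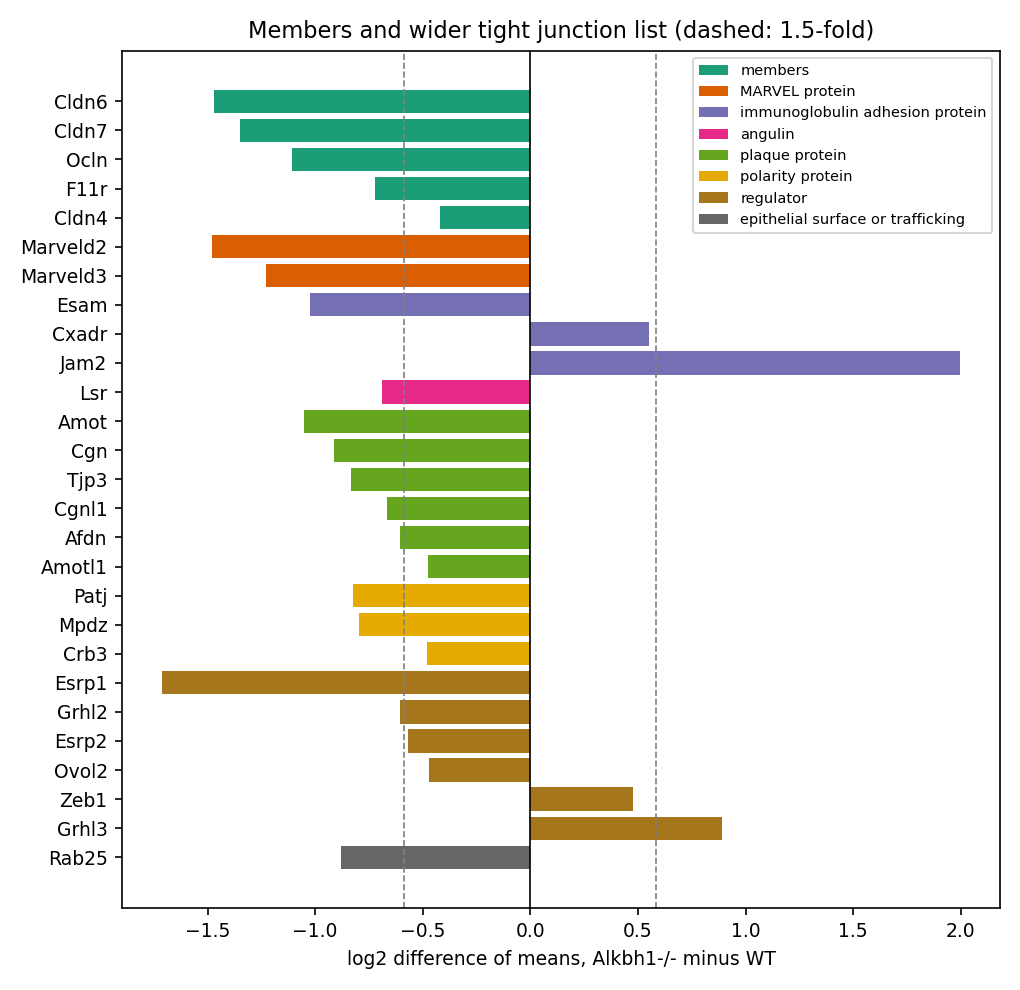
Log2 difference of the authors' means (Alkbh1-/- minus WT, horizontal axis) at the brightest probe set for the 5 members and the 22 further genes that have means, coloured by role. Bars to the left are lower in Alkbh1-/- mESCs, dashed lines mark 1.5-fold, and Jam2 at 2.00 and Grhl3 at 0.89 are the bars that pass the right line.

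Markers of other cells that such a culture may hold were read beside these values. All 8 mESC markers were in the table, with means of at least 10.05 over all arrays, and 3 had genotype means, 2 higher (Nanog and Zfp42) and 1 lower (Utf1). Of 11 markers of feeder fibroblasts, 3 had genotype means at the brightest probe set, against 14.8% of all named genes. These 3, Col1a1, Col3a1 and Thy1, were all lower in Alkbh1-/- mESCs, where 1200 of the 2273 named genes with means were lower. Their summed intensity was 2652 in WT and 1426 in Alkbh1-/- mESCs, and the means of the 11 markers over all arrays lay between 5.08 and 12.06. Col1a2 and Col5a1 had genotype means at a dimmer probe set only, where they were lower at log2 differences of -1.06 and -0.83. Fn1, Postn, Lum, Dcn, Twist2 and Pdgfrb had no genotype means at any probe set. The fibroblast marker means given by genotype were lower in Alkbh1-/- mESCs. So were those of the 5 genes and of 18 of the 22 further genes with means, while 4 of the 22 were higher. The part of feeder fibroblasts in the differences was not tested. Of 6 markers of endothelium, 3 were in the table and Esam alone had genotype means. Of 6 markers of primitive endoderm, Dab2 was lower (-0.92) and Sox7 higher (0.88), and Gata4, Gata6 and Foxa2 had means below 5 over all arrays. Of 6 markers of trophectoderm, Krt7 was lower (-0.73), and the other 4 in the table had no genotype means. In cultures measured as a whole, fewer cells of a type and less RNA per cell cannot be told apart.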

How the data were processed

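Total RNA of 6 mESC samples was hybridized to Affymetrix mouse genome arrays, and the authors normalized all arrays together with RMA. A value used is the log2 mean of each of 33142 probe sets over all arrays, as deposited by the authors; the filter behind that table is not given in the sources used here. The other is the geometric mean intensity in each genotype, deposited by the authors in a class comparison with 4326 entries. By its header, 7320 probe sets were left after filtering and the nominal level was 0.05. The deposited description states that the class written C1 is wild type.

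The authors' own comparison columns (differences, folds, moderated statistics, p-values, adjusted p-values and log-odds) were not used. Identifiers and values on a line of the class comparison did not belong together: 8 of 4261 lines had the mean level of the probe set they name, within 0.0001 on the log2 scale, and the correlation of both levels was 0.07. Each entry was therefore tied to the probe set with the nearest mean level within 0.0001 whose identifier the class comparison lists. This tied 4261 entries, each within 1e-06, and left 65 untied. The step was tested on simulated data. There, every entry had a probe set of nearly the same level, so untied entries were not covered.

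Differences are Alkbh1-/- minus WT of the log2 means. The planned limma test needs values of single arrays and was not run, so no p-value is given. Probe sets were named through RefSeq genes of GRCm38.p6 by gene identifier, transcript accession, symbol or synonym (28205 named, 85.1%). The files name no genome build, so no coordinates were attached to probe sets; all 9 genes matched an entry of the RefSeq promoter table. Named genes were the 9 genes, Alkbh1, and the members of the further list and of the marker lists with genotype means. Other genes of these lists are named to say that they had none. Some genes of the further list are counted but not reported here by name. The members and lists were chosen with earlier results of these data known. Motifs were searched on both strands, and the E-box windows were chosen for printing after the matches were seen. With 3 arrays a genotype, the precision of every mean is limited by their number. Python 3.11.15, pandas 2.3.3, NumPy 2.4.6 and matplotlib 3.10.9 were used.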

Additional observations from a re-analysis of the deposited data

How the results depend on the processing

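Tolerances of 5e-05 and 0.0002 for tying entries to probe sets left the log2 differences of Cldn4, Cldn6, Cldn7, Ocln and F11r as given. This outcome was fixed in advance, since every tie lay within 1e-06. Taking instead the identifier printed on the same line gave 0.66 for Cldn6, 0.70 for Cldn7, 0.52 for Ocln and 0.55 for F11r, which reverses them, and -1.34 for Cldn4. Those lines hold values of other probe sets, as the mean levels show. The mean of both probe sets of Ocln was -1.02, and for F11r no such mean could be taken because a probe set has no genotype means. At 2-fold, 3 of the 9 genes were lower, and at a log2 difference of 1.5, 0 were. Of the further list, 5 genes were lower and 1 was higher at 2-fold. Any probe set in place of the brightest gave 15 lower and 2 higher at 1.5-fold. Shares of all named genes were taken only at 1.5-fold and the brightest probe set, so nothing is read from these counts. No paired analysis was possible because the tables analysed here hold no column for a single array. For the same reason, leaving out replicates and a prior variance with a trend were not run, and the spread between arrays is not known for any value given.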

Other observations

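Several of these genes are neighbours on their chromosome in the RefSeq order of protein-coding genes. Ocln and Marveld2 stand next to each other on chromosome 13, and both were lower in Alkbh1-/- mESCs, at log2 differences of -1.11 and -1.48. Cldn6 is followed by Cldn9 on chromosome 17. Cldn6 had a log2 difference of -1.47, while Cldn9 had means of 4.90 and 5.19 over all arrays at its 2 probe sets and no genotype means. Cldn4 is followed by Cldn3 on chromosome 5. Cldn4 had a log2 difference of -0.42, and the 5 probe sets of Cldn3 had no genotype means.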
